A study of Mus musculus with 5 samples.

Results

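Peaks of intermediate width, from 1000 to under 2000 bp between the deposited start and end, were 8584 of the 85275 H3K4 peaks in the table (10.1%). The table assigned them to 6633 gene symbols. They were chosen by width, and no CPM value entered the choice, though earlier results of these data were known. How peaks were called is not given, so width may itself depend on signal. Cardiomyocytes had been taken from mouse hearts at postnatal day 1 (P1). Of the 5 CUT&RUN libraries, 2 came from cells given Kdm5b-ShRNA-IL for 72 h to knock down Kdm5b, 2 from cells given Control-ShRNA-IL for 72 h, and 1 was a negative control, also from cells given Control-ShRNA-IL. All 5 therefore share the hairpin type of reagent and its duration of 72 h, and no untreated cells were included. The strain, the number of hearts pooled, the antibody and the methylation state of lysine 4 are not given in the sources used here. Libraries are called 3 and 4 after their columns, because the sample titles number them otherwise.

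Methylation of lysine 4 of histone H3 marks active and poised regulatory DNA. The trimethylated form is strongest around transcription start sites, most of all at CpG-rich promoters, and the monomethylated form is typical of enhancers. Kdm5b encodes a demethylase that removes methyl groups from this lysine, and broad domains of the trimethylated mark are known at genes of cell identity, whereas narrower peaks are usual at promoters of widely expressed genes. In CUT&RUN an antibody tethers a nuclease that cuts the DNA around the mark, and a negative control shows where cutting occurs without it.

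Reads in peaks came to 21285387 and 31068085 in knockdown libraries, 18710132 and 19001373 in control libraries and 3784381 in the negative control. Values are CPM, the reads in a peak scaled to a sum over all peaks that is the same in each library, so 1 read was worth 0.0322 to 0.0534 CPM in the H3K4 libraries and 0.264 CPM in the negative control. A count of 3 reads in the negative control corresponds to 0.793 CPM, a limit that covers counting error only. Narrow background peaks, under 500 bp and below the negative control, took 5.63% and 3.64% of the reads in knockdown libraries 3 and 4, 6.65% and 5.79% in control libraries 3 and 4, and 21.9% in the negative control. Knockdown library 4 thus held the smallest share. All 10 cardiomyocyte markers examined had a peak, and at 6 of them the strongest peak stood above the negative control. For fibroblasts 1 of 6 did, for the epicardium 1 of 6, for smooth muscle and pericytes 2 of 5, for endothelium 0 of 5 and for blood cells 0 of 5, of which 3 had a peak. The summed CPM of the epicardial markers was 441 and 440 in knockdown libraries, 361 and 358 in control libraries and 664 in the negative control, and that of the cardiomyocyte markers was 1806 and 1805, 1951 and 1937, and 1845. Libraries measure chromatin and not mRNA, so the extent of the Kdm5b knockdown was not measured. The cell type labels carry a different P number in each sample, whereas the growth protocol gives P1 for all. The labels do not say whether the paired libraries come from separate hearts or cultures, so p-values reflect the spread between the libraries at hand, and that spread may be technical only.

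Promoters of 6 genes with peaks in this width range are shown because these peaks carry the contrasts described below. The peaks have GRCm39 positions, and no sequence of that build was used. RefSeq promoters of build GRCm38.p6 are given instead, as the 250 bases before the annotated start, 5′ to 3′ on the strand of the gene, with CpG dinucleotides in capitals. Whether a peak covers the window shown cannot be read from these positions. Of 27 genes at the extremes of fold change or of ratio to the negative control, 19 had a RefSeq promoter entry. The first 3 genes below had a peak above the negative control and the other 3 a peak below it.
Samd9l (chr6:3399572-3399821, minus strand, 0 CpG): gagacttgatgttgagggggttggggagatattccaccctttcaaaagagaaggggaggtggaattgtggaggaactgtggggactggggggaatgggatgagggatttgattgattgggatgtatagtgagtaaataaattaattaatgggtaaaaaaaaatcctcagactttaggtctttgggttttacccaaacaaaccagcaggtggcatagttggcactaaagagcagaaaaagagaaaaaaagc
Smug1 (chr15:103163285-103163534, minus strand, 14 CpG): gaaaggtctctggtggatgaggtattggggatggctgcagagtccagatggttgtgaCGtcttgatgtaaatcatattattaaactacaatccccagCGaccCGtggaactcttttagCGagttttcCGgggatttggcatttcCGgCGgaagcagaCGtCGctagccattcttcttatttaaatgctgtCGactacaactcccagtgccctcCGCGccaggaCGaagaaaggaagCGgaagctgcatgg
Zfp971 (chr2:178023034-178023283, plus strand, 2 CpG): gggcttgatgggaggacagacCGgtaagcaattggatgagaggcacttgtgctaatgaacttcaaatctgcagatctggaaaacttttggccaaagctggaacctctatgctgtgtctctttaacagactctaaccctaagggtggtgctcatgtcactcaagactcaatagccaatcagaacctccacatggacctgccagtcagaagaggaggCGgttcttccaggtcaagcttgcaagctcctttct
Muc16 (chr9:18674604-18674853, minus strand, 0 CpG): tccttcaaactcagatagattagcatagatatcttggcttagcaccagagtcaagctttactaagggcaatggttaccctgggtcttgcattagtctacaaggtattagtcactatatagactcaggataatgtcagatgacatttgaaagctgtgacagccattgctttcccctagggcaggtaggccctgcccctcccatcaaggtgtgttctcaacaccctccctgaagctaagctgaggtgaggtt
Bnc1 (chr7:81992300-81992549, minus strand, 39 CpG): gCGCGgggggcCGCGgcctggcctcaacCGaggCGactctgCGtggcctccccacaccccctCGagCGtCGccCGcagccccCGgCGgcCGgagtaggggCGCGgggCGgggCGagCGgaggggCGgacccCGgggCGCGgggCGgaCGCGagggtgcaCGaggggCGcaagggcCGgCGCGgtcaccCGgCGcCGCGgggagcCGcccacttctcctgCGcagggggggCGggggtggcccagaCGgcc
Cdsn (chr17:35542851-35543100, plus strand, 8 CpG): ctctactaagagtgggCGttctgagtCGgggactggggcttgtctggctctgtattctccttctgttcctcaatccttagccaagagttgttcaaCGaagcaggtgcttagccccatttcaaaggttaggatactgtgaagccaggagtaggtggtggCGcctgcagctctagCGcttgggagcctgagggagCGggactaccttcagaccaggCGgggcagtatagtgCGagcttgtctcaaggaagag
CpG content thus ranged from 0 to 39 in 250 bases among these 6 promoters, with low and higher counts on both sides. Over the full 300-base windows of protein-coding genes, from 250 bases before to 50 after the start, the median was 16 CpG for 678 genes with a peak above the negative control and no wider peak. It was 19 CpG for 74 genes with such a peak and a wider one, and 23 CpG for 1590 genes whose peaks of 1 to under 2 kb all lay below while the gene had a wider peak. Any gene with a peak of at least 2 kb gave 22 CpG (7236 genes). For genes with only peaks below and no wider peak, a RefSeq window was found for 75.2%, under the 80% set here for use. The 1254 with a window gave a median of 15 CpG, and 16.0% of them had fewer than 5. These values are incomplete. The medians of 16 and 23 CpG belong to groups that differ both in side and in having a wider peak, so they do not compare the sides alone. Fewer than 5 CpG were found in 5.01%, 5.41% and 7.23% of the windows of the first 3 groups, against 5.21% for the protein-coding genes with any peak of at least 2 kb.

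Each peak was placed above or below the negative control by the mean log2(CPM + 1) of the 4 H3K4 libraries minus that of the negative control. By this ratio 1045 of the peaks (12.2%) stood above the negative control and 7539 (87.8%) below, where 11.8% of all 85275 peaks stood above. A single library gives the negative control no spread, so the ratios are values without a test. They also rest on the scaling: with TMM factors over all 5 libraries, which lower the negative control relative to the H3K4 libraries, 6240 peaks stood above. At least 2-fold above the negative control were 130 peaks (1.51%), against 4.21% of all peaks. In the knockdown libraries alone 157 passed this level (4.63% of all peaks did), in control libraries alone 106 did (3.78% of all peaks), and 103 passed in both. At least 2-fold below were 5327 (62.1%), against 74.5% of all peaks.

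The share above the negative control grew with width, which may itself depend on signal. From 500 to under 1000 bp 0.433% of 12233 peaks stood above the negative control, and from 2000 to under 5000 bp 72.2% of 9750 did. Within the intermediate range the share was 1.56% at 1000 to under 1250 bp, 6.44% at 1250 to under 1500 bp, 17.7% at 1500 to under 1750 bp and 35.1% at 1750 to under 2000 bp. The limits of the range lay on a slope and not at a step. Of 737 peaks of 950 to 999 bp 1.76% stood above, and of 711 peaks of 1000 to 1049 bp 1.13% did. At the upper limit, 42.1% of 292 peaks of 1950 to 1999 bp and 46.5% of 312 peaks of 2000 to 2049 bp stood above. The median width was 1757 bp among the peaks above and 1334 bp among those below.

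**Figure D1:**
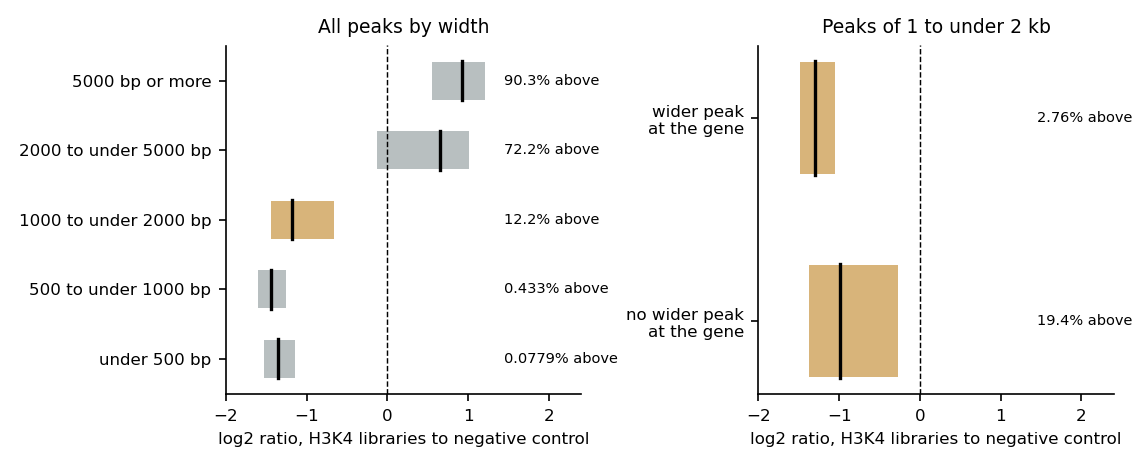
Log2 ratio of the mean of the 4 H3K4 libraries to the negative control (x axis), for all peaks by width class (left) and for peaks of 1 to under 2 kb by whether the gene also has a peak of at least 2 kb (right). Bars span the quartiles, black lines mark medians and the dashed line marks equality; the median was -1.19 for peaks of 1 to under 2 kb and 0.66 for the next wider class, and 2.76% of the peaks with a wider one at the gene stood above the negative control, against 19.4% of those without.

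The H3K4 libraries differed between the sides far more than the negative control did, a direction that follows from how the sides were set. Among the peaks above, the median was 28.4 and 29.6 CPM in knockdown libraries 3 and 4, 27.6 and 28.6 CPM in control libraries 3 and 4, and 19.3 CPM in the negative control. Among the peaks below, the medians were 5.83 and 5.21 CPM in knockdown libraries, 6.73 and 6.21 CPM in control libraries and 15.3 CPM in the negative control. Per kb of peak, the medians above were 16.6 and 17.3 CPM in knockdown libraries, 16.0 and 16.6 CPM in control libraries and 11.2 CPM in the negative control. Below they were 4.21 and 3.77, 4.87 and 4.47, and 11.0 CPM per kb in the same order. Levels overlapped between the sides, as the mean CPM of the 4 H3K4 libraries ranged from 4.15 to 66.0 above and from 1.92 to 144 below.

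As a whole the peaks of 1 to under 2 kb held 9.19% and 9.16% of the reads in knockdown libraries 3 and 4, 9.77% and 9.63% in control libraries 3 and 4, and 16.4% in the negative control. Both knockdown libraries lay below both control libraries, with an exact 2-sided permutation p = 0.333, the smallest value possible with 2 libraries against 2. The peaks above the negative control held 3.04% and 3.20% in knockdown libraries, 2.93% and 3.05% in control libraries and 2.05% in the negative control (exact permutation p = 0.667), and these groups overlapped. The peaks below held 6.15% and 5.97%, 6.83% and 6.58%, and 14.3% in the same order (exact permutation p = 0.333). The log2 distance between the median peak above and the median peak below was 2.11 and 2.30 in knockdown libraries, 1.89 and 2.04 in control libraries and 0.31 in the negative control. A smaller distance in the negative control than in the H3K4 libraries follows from how the sides were set. Among the H3K4 libraries the distance was larger in both knockdown libraries than in either control library, again with an exact permutation p = 0.333.

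A wider peak, of at least 2 kb and on the same chromosome, was assigned to the same gene for 3734 of the 8584 peaks (43.5%). Peaks above the negative control had one for 103 of 1045 (9.86%) and peaks below for 3631 of 7539 (48.2%). Read the other way, 2.76% of the peaks with a wider one stood above, against 19.4% of the 4850 without. Most peaks above were the main peak of their gene: 917 (87.8%) were its widest, 955 had its highest mean CPM and 368 (35.2%) were its only peak. Of the peaks below, 3319 (44.0%) were the widest of their gene, 3289 had its highest CPM and 1052 (14.0%) were the only one. Peaks below that accompanied a wider one were lower than those that did not, with median levels per kb of 3.65 and 3.12 CPM in knockdown libraries and 4.34 and 3.92 CPM in control libraries. Without a wider peak these were 5.47 and 5.34 CPM per kb in knockdown libraries and 5.95 and 5.69 CPM per kb in control libraries.

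The nearest peak of at least 2 kb lay a median of 8564 bp away (quartiles 2582 and 24756 bp), within 50 kb for 3304 of the 3734 (88.5%) and within 2 kb for 802. For levels and fold changes each intermediate peak was paired with the widest peak of its gene, which need not be the nearest. The widest peak was the denser of the pair in most cases. The median was 3.74 CPM per kb at the intermediate peak and 18.4 CPM per kb at the wider one, and the intermediate peak was denser in 242 pairs. The wider peak stood above the negative control in 78.1% of pairs. Among the 103 pairs whose intermediate peak stood above, the densities were 14.6 and 15.6 CPM per kb, and the intermediate peak was denser in 57.

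Genes with many intermediate peaks had them below the negative control and beside a wider peak. Of the 6633 genes 5360 had 1, 896 had 2 and 377 had at least 3. The tensin gene Tns1 and the AT-hook gene Ahdc1 had 9 each. The clone 2310067E19Rik had 10, and Tns3, Lrrfip1 and Map4k4 had 8 each. All intermediate peaks of these 6 genes lay below the negative control, and each gene also had a wider peak. The median log2 fold change of knockdown over control across the peaks of a gene was -0.41 at Tns1 and -0.40 at Lrrfip1, and of the intermediate peaks of the 6 genes 1 each passed as lower at Tns1, Tns3 and 2310067E19Rik.

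The kinds of gene also differed between the sides. Of the 1033 genes with a peak above the negative control 89.9% were protein coding in RefSeq and 6.10% were long noncoding RNA genes. Of the 5600 genes with peaks below only, 65.1% were protein coding and 25.9% long noncoding, near the 60.0% and 26.9% of all 25017 genes in the table. A high protein-coding share was not particular to this width: of 10336 genes with any peak of at least 2 kb, 8998 were protein coding. Among the genes with a peak above, 90.3% had no wider peak, against 59.0% of those with peaks below only.

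By the log2(CPM + 1) ratio, the named peaks that stood highest over the negative control were at Rtcb, Prpf18, H2T23, Zfp971 and Zfp738. The multiples given below are ratios of plain CPM and need not keep this order. Rtcb, which encodes the tRNA ligase that rejoins tRNA after splicing, had a peak at chromosome 10, 85792222 to 85793913 (build GRCm39, as for all peak positions). It held 51.6 and 56.6 CPM in knockdown libraries, 46.1 and 47.5 CPM in control libraries and 14.8 CPM in the negative control. Prpf18, a pre-mRNA splicing factor gene, held 49.8 and 60.1 CPM in knockdown libraries, 44.5 and 51.8 CPM in control libraries and 15.6 CPM in the negative control (chromosome 2, 4655321 to 4657165). Both stood over 3 times above the negative control, at 3.41 and 3.31 times. H2T23, a nonclassical MHC class I gene, had 11.6 and 11.8 CPM in knockdown libraries, 11.5 and 11.4 CPM in control libraries, with 3.17 CPM in the negative control. There 1 read was worth 0.264 CPM, so the ratio at H2T23 rests on few reads. The zinc finger genes Zfp971 and Zfp738 stood 3.24 and 3.13 times above it. Zfp971, whose promoter is printed above, held 32.3 and 31.1 CPM in knockdown libraries, 26.9 and 26.3 CPM in control libraries and 8.98 CPM in the negative control. At none of these 5 genes did limma call a difference between knockdown and control, with adjusted p from 0.11 at Rtcb to 0.95 at H2T23.

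Leaving aside Rik clones, Gm numbers and unnamed loci, the peaks with the highest CPM above the negative control were at Mob3b (a MOB family kinase adaptor gene), Cep97 (a centriolar protein), Osbpl6 (an oxysterol-binding protein homologue), Anxa4 (an annexin) and Alg11 (a mannosyltransferase of N-glycan assembly). At Mob3b the level was 68.9 and 71.1 CPM in knockdown libraries, 62.4 and 60.7 CPM in control libraries and 37.8 CPM in the negative control. At Cep97 it was 64.4 and 66.5 CPM in knockdown libraries, 55.4 and 57.0 CPM in control libraries and 24.3 CPM in the negative control. At both genes the knockdown libraries lay above the control libraries without overlap, as at 33.9% of all intermediate peaks above the negative control. Limma's adjusted p at these genes was 0.12 and 0.057, in the order named. At Anxa4 the groups overlapped, with 57.1 and 62.5 CPM in knockdown libraries, 56.3 and 63.2 CPM in control libraries and 24.6 CPM in the negative control. Osbpl6 and Alg11 also overlapped between groups, at 1.34 and 1.20 times the negative control. None of these 5 genes had a wider peak.

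At the other end, some of the lowest ratios were at peaks where the negative control itself was very high. The Sfi1 gene, which encodes a centrosomal protein, had 2 such peaks with 475 and 513 CPM in the negative control (chromosome 11, 3102574 to 3104293 and 3142454 to 3144044). The first held 83.6 and 55.2 CPM in knockdown libraries and 106 and 93.9 CPM in control libraries, the second 147 and 118 CPM and 158 and 153 CPM. Pisdps1, a pseudogene on the same chromosome, held 21.3 and 12.9 CPM in knockdown libraries, 17.7 and 21.4 CPM in control libraries and 112 CPM in the negative control. Vmn1r2, of the vomeronasal receptor family, held 35.4 and 19.1 CPM in knockdown libraries, 33.0 and 33.2 CPM in control libraries and 200 CPM in the negative control. At all 4 peaks knockdown library 4 was the lowest of the H3K4 libraries. Pseudogenes and receptor families have close copies, so the assignment of reads there is uncertain. Limma called both Sfi1 peaks and Vmn1r2 lower, but without knockdown library 4 their adjusted p was 0.072, 0.74 and 0.84, and the log2 fold change of Vmn1r2 was then 0.09. Without control library 3 the second Sfi1 peak and Vmn1r2 had adjusted p of 0.093 and 0.14, and without control library 4 Vmn1r2 had 0.093. Bnc1 and Cyp26a1, which encodes the retinoic acid hydroxylase, completed the lowest ratios at 0.159 and 0.201 times the negative control. The other peaks with the highest CPM on this side were at the valine tRNA gene nTVaac2, at Mycl, a Myc family gene, and at Rgl3, which encodes a Ras effector. Mycl held 54.6 and 58.2 CPM in knockdown libraries, 52.2 and 52.0 CPM in control libraries and 58.9 CPM in the negative control, and did not pass (adjusted p = 0.42).

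The knockdown was compared with the control by limma on log2(CPM + 1), with the p-values of all 58072 tested peaks adjusted together (Benjamini-Hochberg) and called at 0.05, and all 8584 intermediate peaks were tested. Of them 44 (0.513%) were higher and 318 (3.70%) lower in knockdown libraries, where 1.33% and 1.63% of all tested peaks were. Above the negative control 23 of 1045 were higher (2.20%) and 0 were lower, where an unadjusted p under 0.05 gave 146 higher and 35 lower, edgeR 2 higher and 0 lower, and DESeq2 1 and 0. Below it 21 of 7539 were higher (0.279%) and 318 lower (4.22%). The median log2 fold change was 0.06 above (quartiles -0.02 and 0.13) and -0.17 below (quartiles -0.32 and -0.02), beside -0.14 over all tested peaks. Fold changes were positive for 68.9% of the peaks above and 21.6% of those below. Both knockdown libraries lay over both control libraries at 33.9% of the peaks above and 7.47% of those below, where 12.1% of all tested peaks did. Both lay under both control libraries at 10.1% above and 45.7% below, where 35.4% of all tested peaks did. The sides rest in part on the knockdown libraries, and when set by the control libraries alone they gave 20 higher and 3 lower above. No test of the difference between the sides was made.

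These counts rest on the scaling of the libraries and on the variance trend in limma. Without that trend, or with scaling on narrow background peaks, 0 peaks passed on either side. With TMM scaling 2 peaks above were higher, and below 10 were higher and 10 lower. With median centring 0 peaks above passed and 7 below were higher, and the peaks below had a median of 0.07 in place of -0.17, and those above 0.30. With quantile normalization 34 were higher and 2 lower above, and 91 higher and 81 lower below. In each of the settings tried, the median of the peaks above was larger than that of the peaks below. Without knockdown library 4 the peaks above had 2 higher and 1 lower, and the peaks below 4 higher and 55 lower. Without control library 3 the counts were 4, 0, 10 and 47 in the same order.

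**Figure D2:**
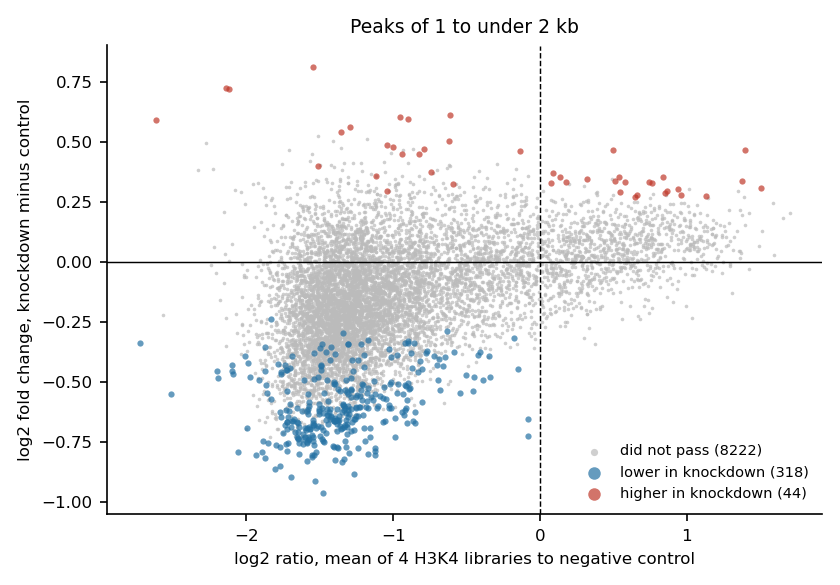
Log2 fold change of knockdown minus control (y axis) against the log2 ratio of the 4 H3K4 libraries to the negative control (x axis), 1 point per peak of 1 to under 2 kb. Red points are the 44 peaks higher and blue points the 318 lower in knockdown libraries at limma's adjusted p of 0.05, and no blue point lies right of the dashed line at equality with the negative control. The ratio includes the knockdown libraries, and with sides set by the control libraries alone 3 lower peaks stood above.

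Level and side go together, so the sides were also set against each other at equal level. Between 4 and 5 on the log2(CPM + 1) scale the median log2 fold change was 0.04 for 565 peaks above the negative control and -0.07 for 905 below. Between 5 and 6 it was 0.07 for 411 above and -0.05 for 98 below. Between 3 and 4 it was 0.03 for 60 above and -0.09 for 1955 below. Weaker peaks were nearly all below, with -0.22 for 4299 peaks between 2 and 3, where 7 stood above, and -0.33 for 280 between 1 and 2, where 0 did. In each of the 3 classes with at least 20 peaks on both sides the median above was the larger one. The side and the level both come from the same H3K4 libraries, and the part of each in this pattern was not tested.

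**Figure D3:**
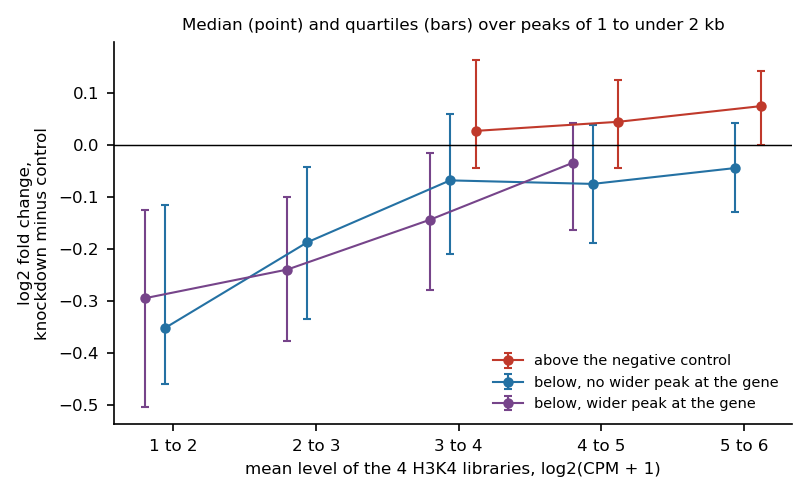
Median log2 fold change of knockdown minus control (y axis, points) with quartiles (bars) in classes of mean level of the 4 H3K4 libraries (x axis, log2(CPM + 1)), for peaks of 1 to under 2 kb above the negative control and for those below with or without a wider peak at the gene. Only classes of at least 20 peaks are drawn, and in those that hold both sides the median above exceeded that of each group drawn below, as between 4 and 5, where it was 0.04 against -0.03 with and -0.08 without a wider peak.

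Intermediate peaks and the widest peak of the same gene were set side by side for the 3734 pairs. The median log2 fold change was -0.21 at the intermediate peaks and 0.03 at the wider ones, and 44.7% of pairs had the same sign. Across pairs Pearson's r of the fold changes was 0.11, over peaks of the same 4 libraries that are not independent. Of the 157 intermediate peaks that fell and had a wider peak, the wider one also fell in 21 and was higher in 5, and its fold change was positive in 77. At Wee1, which encodes a kinase that holds back entry into mitosis, the intermediate peak had 4.60 and 4.60 CPM in knockdown libraries, 9.94 and 6.42 CPM in control libraries and 16.6 CPM in the negative control (chromosome 7, 109755190 to 109756959, log2 fold change -0.69, SE 0.17 and limma adjusted p = 0.006). Its wider peak of 7672 bp had a log2 fold change of 0.23 (limma adjusted p = 0.0008). The call at the intermediate Wee1 peak was lost without control library 3 (adjusted p = 0.63), whose 9.94 CPM stands apart from the 6.42 CPM of control library 4. It was also lost without knockdown library 3 (0.053) or 4 (0.1).

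Among the peaks above the negative control, the named rises were at Samd9l, nTLcag5, nTFgaa1, Pfdn1, Smug1 and Atg7. Samd9l, an interferon-inducible gene of antiviral defence, held 46.5 and 47.7 CPM in knockdown libraries, 35.4 and 32.2 CPM in control libraries and 14.5 CPM in the negative control (chromosome 6, 3397494 to 3399357). The groups did not overlap, which the rule for naming required, and the log2 fold change was 0.47 (SE 0.08 and limma adjusted p = 8.5e-06). Samd9l was the 1 peak of the 23 that passed with any 1 of the 4 libraries left out, and it also passed with TMM scaling, edgeR and DESeq2. No wider peak was assigned to it.

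nTLcag5, a leucine tRNA gene, held 26.0 and 26.1 CPM in knockdown libraries, 18.4 and 18.7 CPM in control libraries and 15.3 CPM in the negative control (log2 fold change 0.47, SE 0.10 and limma adjusted p = 0.00096). It passed with TMM scaling and with edgeR, and without knockdown library 4 its adjusted p was 0.057. nTFgaa1, a phenylalanine tRNA gene, held 29.3 and 26.1 CPM in knockdown libraries, 20.6 and 21.8 CPM in control libraries and 22.7 CPM in the negative control. Its control libraries thus lay under the negative control and its knockdown libraries over it. The log2 fold change was 0.37 (SE 0.10 and limma adjusted p = 0.012), and the adjusted p was 0.24 without knockdown library 3, 0.05 without knockdown library 4 and 0.21 without control library 3.

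Smug1 encodes a uracil-DNA glycosylase of base excision repair. The peak, at chromosome 15 from 103070764 to 103072262, held 35.6 and 38.4 CPM in knockdown libraries, 26.7 and 30.9 CPM in control libraries and 29.6 CPM in the negative control (log2 fold change 0.35, SE 0.09 and limma adjusted p = 0.0057). Without control library 3, the lower of the pair, its adjusted p was 0.37, and without knockdown library 4 it was 0.28. Atg7, the gene of an activating enzyme of autophagy, held 30.5 and 29.1 CPM in knockdown libraries, 22.9 and 23.4 CPM in control libraries and 14.3 CPM in the negative control (log2 fold change 0.35, limma adjusted p = 0.014). It did not pass when any 1 library was left out, with adjusted p from 0.057 to 0.17. Pfdn1, which encodes a subunit of the prefoldin chaperone, held 25.1 and 26.6 CPM in knockdown libraries, 19.1 and 20.9 CPM in control libraries and 15.3 CPM in the negative control (log2 fold change 0.35, limma adjusted p = 0.023, and 0.34 without control library 3, 0.096 without knockdown library 3 and 0.39 without knockdown library 4). Its widest peak, of 2191 bp, had a log2 fold change of -0.22 that did not pass (limma adjusted p = 0.45). The nearest Pfdn1 peak of at least 2 kb lay 35316 bp away.

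**Figure D4:**
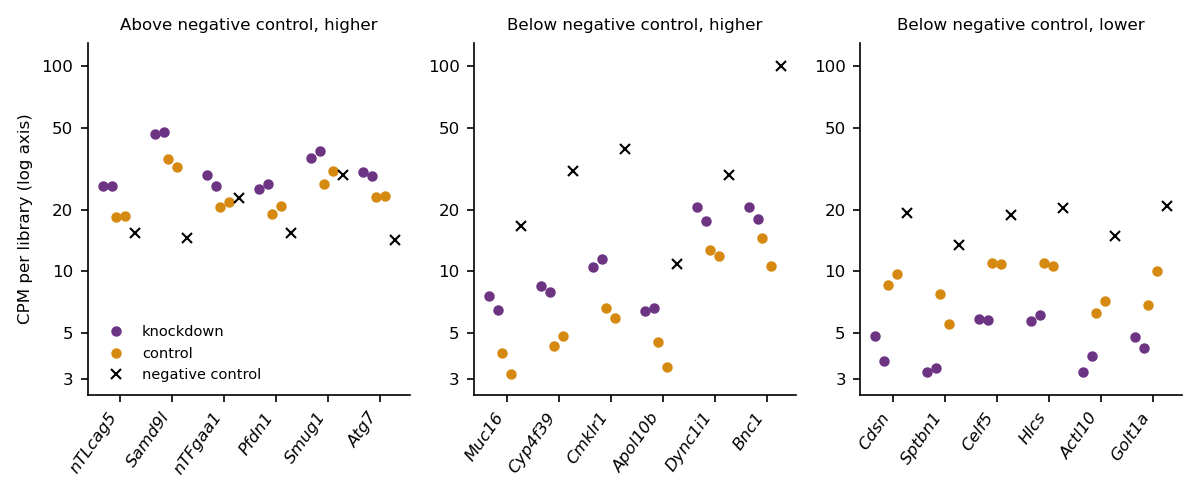
CPM per library (log axis) at the 6 named peaks above the negative control that were higher in knockdown (left), the 6 below it that were higher (middle) and the 6 below it that were lower (right). Purple points are the 2 knockdown and orange points the 2 control libraries, and crosses mark the negative control, which reached 100.4 CPM at Bnc1.

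Below the negative control the named rises were at Muc16, Cyp4f39, Cmklr1, Apol10b, Dync1i1 and Bnc1, and in all of them every H3K4 library stayed under the negative control. Muc16, the gene of a large mucin of mesothelial and other surface epithelia, held 7.56 and 6.50 CPM in knockdown libraries, 4.01 and 3.16 CPM in control libraries and 16.6 CPM in the negative control (chromosome 9, 18583411 to 18585079, log2 fold change 0.81, SE 0.18 and limma adjusted p = 0.0017). Without control library 4 its adjusted p was 0.069 and without knockdown library 3 it was 0.091. Bnc1, which encodes the zinc finger protein basonuclin 1, held 20.7 and 18.0 CPM in knockdown libraries, 14.5 and 10.7 CPM in control libraries and 100.4 CPM in the negative control (chromosome 7, 81638483 to 81640142, log2 fold change 0.59, SE 0.12 and limma adjusted p = 0.0002). Its adjusted p was 0.11 without control library 4 and 0.073 without knockdown library 3. The widest Bnc1 peak, of 2226 bp, had a log2 fold change of 0.26 that did not pass (limma adjusted p = 0.13). The nearest Bnc1 peak of at least 2 kb lay 717 bp away. Over the 6 epicardial markers, 5 had a strongest peak that was higher in knockdown, with the summed values given above. The strongest peak was also higher at 4 of 6 fibroblast markers and at 3 of 5 smooth muscle and pericyte markers, and lower at 5 of 10 cardiomyocyte markers. At the 5 endothelial markers and the 3 blood cell markers with a peak 0 were called. Of all tested peaks 1.33% were higher and 1.63% lower. Among peaks of 2000 to under 5000 bp 4.78% were higher and 3.78% lower, and among those of 5000 bp or more 12.5% and 4.89%. No other setting is given for the marker calls. Over all tested peaks TMM scaling gave 62 higher and 35 lower, in place of 773 and 947. The strongest peak was of 1 to under 2 kb at only 1 epicardial, 1 endothelial and 1 smooth muscle or pericyte marker, and at 0 of the other cell types. Fibroblast markers summed to 470 and 469 CPM in knockdown libraries and 402 and 377 CPM in control libraries. Smooth muscle and pericyte markers summed to 306 and 317 CPM in knockdown libraries and 264 and 248 CPM in control libraries. The part of a changed mix of cells in these rises and in the falls described below was not tested, and more cells of a type and a higher signal per cell cannot be told apart in bulk libraries.

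Cmklr1, the gene of the chemerin receptor, held 10.5 and 11.5 CPM in knockdown libraries, 6.63 and 5.95 CPM in control libraries and 39.6 CPM in the negative control (log2 fold change 0.72, SE 0.15 and limma adjusted p = 0.0005). It passed with TMM scaling, median centring, edgeR and DESeq2, and without knockdown library 4 its adjusted p was 0.093. Cyp4f39, a cytochrome P450 gene, held 8.50 and 7.95 CPM in knockdown libraries, 4.33 and 4.84 CPM in control libraries and 30.7 CPM in the negative control (log2 fold change 0.73, limma adjusted p = 0.0027). Leaving out control library 3 or knockdown library 3 or 4 gave it an adjusted p of 0.073 to 0.079. Dync1i1, which encodes a dynein intermediate chain, held 20.5 and 17.6 CPM in knockdown libraries, 12.7 and 11.8 CPM in control libraries and 29.3 CPM in the negative control (log2 fold change 0.59, limma adjusted p = 0.0002, and 0.077 without knockdown library 3). Apol10b, an apolipoprotein L gene, had a log2 fold change of 0.61 (limma adjusted p = 0.037) that did not pass when any 1 library was left out, with adjusted p from 0.054 to 0.40.

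The named falls were all below the negative control. Cdsn, the gene of corneodesmosin, an adhesion protein of cornified epithelium, had the largest, with 4.84 and 3.67 CPM in knockdown libraries, 8.60 and 9.74 CPM in control libraries and 19.3 CPM in the negative control (chromosome 17, 35862942 to 35864531). The log2 fold change was -0.96 (SE 0.17 and limma adjusted p = 1.3e-05). Celf5, a neuronal RNA-binding protein gene, held 5.87 and 5.83 CPM in knockdown libraries, 11.0 and 10.9 CPM in control libraries and 18.8 CPM in the negative control (log2 fold change -0.80, SE 0.15 and limma adjusted p = 7.6e-05). Hlcs, which encodes the enzyme that attaches biotin to carboxylases, held 5.73 and 6.12 CPM in knockdown libraries, 11.0 and 10.7 CPM in control libraries and 20.3 CPM in the negative control (log2 fold change -0.77, SE 0.15 and limma adjusted p = 0.00019). These 3 were among the 6 of the 318 lower peaks that passed with any 1 library left out, and each also passed with TMM scaling and edgeR. The other 3 of the 6 were at Efnb3, Lbx1 and Tbc1d30, named because of this count. Over all 61 named peaks that passed, 4 passed with any 1 library left out.

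Sptbn1, a beta-spectrin gene, held 3.24 and 3.38 CPM in knockdown libraries, 7.80 and 5.58 CPM in control libraries and 13.5 CPM in the negative control (log2 fold change -0.82, limma adjusted p = 0.0022, and 0.34 without control library 3). Actl10, an actin-like gene, and Golt1a, a Golgi transport gene, had log2 fold changes of -0.77 and -0.76 (limma adjusted p = 0.0043 and 0.0016). Their adjusted p was 0.14 and 0.27 without control library 4, 0.089 at Actl10 without knockdown library 3 and 0.096 at Golt1a without knockdown library 4. The rule for naming required both knockdown libraries to lie under both control libraries, as they did at 317 of the 318 lower peaks. At all 6 genes the negative control held the highest value.

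Gene lists of cell types and pathways were described by counts and medians beside the 12.2% of intermediate peaks above the negative control and the median of -0.14 over all tested peaks. Of the intermediate peaks with a wider one at the gene 2.76% stood above, against 19.4% of those without. A list with many peaks beside a wider one is thus to be read against a share under 12.2%. Counts of calls are read against the 0.513% higher and 3.70% lower among all intermediate peaks. Among the lists with many peaks, zinc finger Zfp genes and mitochondrial ribosomal protein genes had most of theirs above. Of 145 peaks at 121 Zfp genes 83 stood above the negative control, and of 22 peaks at 20 mitochondrial ribosomal protein genes 13 did. Their median log2 fold change was 0.04 each, and it was positive in the scaling, edgeR, DESeq2 and left-out-library settings as well. Zfp7 and Zfp11 were higher and Zfp697 was lower. Zfp7 held 34.2 and 37.1 CPM in knockdown libraries, 27.1 and 31.4 CPM in control libraries and 16.1 CPM in the negative control (limma adjusted p = 0.047, and 0.68 without control library 3, 0.097 without knockdown library 3 and 0.58 without knockdown library 4). Zfp11 held 36.4 and 37.3 CPM in knockdown libraries, 29.4 and 30.6 CPM in control libraries and 18.0 CPM in the negative control (adjusted p = 0.036, and 0.083 to 0.38 with any 1 library left out). Zfp697, which lies below the negative control and has a wider peak, had a log2 fold change of -0.68 (limma adjusted p = 0.029, and 0.58 without knockdown library 4, 0.54 without control library 3 and 0.065 without control library 4). Mrpl19, a subunit gene of the large mitochondrial ribosomal subunit, held 38.2 and 39.7 CPM in knockdown libraries, 29.1 and 35.0 CPM in control libraries and 21.9 CPM in the negative control (limma adjusted p = 0.037, and 0.75 without control library 3, 0.13 without knockdown library 3 and 0.43 without knockdown library 4).

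Genes of heart muscle had nearly all their intermediate peaks below the negative control and mostly beside a wider one. Of all intermediate peaks with a wider one at the gene, 97.2% lay below. Of 37 peaks at 20 sarcomere genes 0 stood above, and 32 accompanied a wider peak. Of the 37, 3 fell (8.11%, against 3.70% of all intermediate and 1.63% of all tested peaks) and 0 rose, with a list median of -0.21 that was 0.03 with median centring and 0.18 when scaled on narrow background peaks. The 3 were Myh7b (a slow myosin heavy chain), Tnni1 (slow skeletal troponin I) and Xirp1 (an actin-binding protein of intercalated discs). Xirp1 held 4.98 and 5.47 CPM in knockdown libraries, 9.41 and 7.53 CPM in control libraries and 18.0 CPM in the negative control (log2 fold change -0.60, SE 0.16 and limma adjusted p = 0.017), and its wider peak of 6491 bp fell as well (log2 fold change -0.26, adjusted p = 0.00059). Tnni1 held 8.32 and 8.18 CPM in knockdown libraries, 12.7 and 12.1 CPM in control libraries and 24.8 CPM in the negative control (limma adjusted p = 0.0099). The widest Tnni1 peak fell too (log2 fold change -0.33, limma adjusted p = 0.0039), and the nearest of at least 2 kb lay 206 bp away. Myh7b held 8.97 and 9.27 CPM in knockdown libraries, 12.2 and 14.1 CPM in control libraries and 33.0 CPM in the negative control (limma adjusted p = 0.02). Tnni1 and Myh7b did not pass when any 1 library was left out, with adjusted p from 0.055 to 0.27, and Xirp1 passed only without control library 4 (adjusted p from 0.12 to 0.48 without another).

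Calcium handling and ion channel genes had 28 peaks at 17 genes, of which 1 stood above the negative control and 23 accompanied a wider peak. Of these 28 peaks 5 fell (17.9%, against 3.70% of all intermediate and 1.63% of all tested peaks) and 0 rose, with a median of -0.28 that was -0.04 with median centring and 0.12 when scaled on narrow background peaks. Ryr2, the calcium release channel of the sarcoplasmic reticulum, held 4.28 and 3.12 CPM in knockdown libraries, 6.73 and 6.42 CPM in control libraries and 16.9 CPM in the negative control (log2 fold change -0.70, SE 0.18 and limma adjusted p = 0.012). The widest Ryr2 peak, of 9072 bp, fell as well (log2 fold change -0.20, limma adjusted p = 0.006), and the nearest of at least 2 kb lay 57336 bp away. Jph2, which encodes junctophilin 2 of the cardiac dyad, had 2 peaks that fell (log2 fold changes -0.62 and -0.59, limma adjusted p = 0.0097 and 0.0087) beside a wider peak of 9525 bp at 0.02. The remaining 2 were at Kcnh2, a potassium channel gene of repolarization, and Trdn, the triadin gene, with log2 fold changes of -0.61 and -0.69 (adjusted p = 0.026 and 0.032). Without knockdown library 4 the adjusted p was 0.43 at Ryr2, 0.46 at Kcnh2, 0.32 at Trdn and 0.18 and 0.20 at Jph2. Without control library 3 it was 0.20, 0.071, 0.26 and 0.28 to 0.51 in the same order, and without control library 4 it was 0.093 at Ryr2, 0.32 at Kcnh2 and 0.20 at Trdn. Without knockdown library 3 it was 0.09 at Trdn and 0.051 at both Jph2 peaks.

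Epicardial and mesothelial genes had 12 peaks, 8 of them beside a wider one and 0 above the negative control. Of the 12 peaks 3 rose, at Bnc1, Bnc2 and Muc16, and 0 fell, with a median of -0.02 that was 0.08 with TMM scaling and 0.22 with median centring. Bnc2, the gene of basonuclin 2, held 27.1 and 26.6 CPM in knockdown libraries, 20.8 and 20.1 CPM in control libraries and 39.9 CPM in the negative control (log2 fold change 0.38, SE 0.10 and limma adjusted p = 0.011, and 0.074 to 0.16 with any 1 library left out). Tbx18, a T-box gene of the epicardium, had 4 intermediate peaks beside a wider one, and none of the 4 passed. Fibroblast genes had 16 peaks, 11 beside a wider one, 0 above and 0 that passed. Endothelial genes had 17 (9 beside a wider one) and smooth muscle and pericyte genes 11 (7 beside a wider one). These lists also had 0 above, and 1 peak in each fell, at Apln and Tbx2. Tbx2, a T-box repressor gene, held 11.7 and 12.4 CPM in knockdown libraries, 17.5 and 17.6 CPM in control libraries and 55.8 CPM in the negative control (limma adjusted p = 0.0029, 0.076 without knockdown library 3 and 0.059 without control library 3). Apln, the apelin gene, held 14.9 and 15.9 CPM in knockdown libraries, 21.0 and 19.999 CPM in control libraries and 29.9 CPM in the negative control (limma adjusted p = 0.022, and 0.071 to 0.28 with any 1 library left out). Pdgfra and Pecam1, markers of fibroblasts and endothelium, had intermediate peaks that did not pass (adjusted p = 0.78 and 0.59), and so did both Meis2 peaks (0.28 and 0.29).

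Developmental regulators of other lineages had 28 peaks, 0 above the negative control, of which 3 fell and 0 rose, and 22 had no wider peak at the gene. The 3 were the homeobox genes Hmx3 and En2 and the forkhead gene Foxa1, and the list median was -0.17, or 0.07 with median centring. Hmx3 held 19.0 and 21.7 CPM in knockdown libraries, 29.2 and 27.3 CPM in control libraries and 83.8 CPM in the negative control (log2 fold change -0.46, SE 0.10 and limma adjusted p = 0.00081, 0.097 without knockdown library 3 and 0.076 without control library 3). Foxa1 held 14.4 and 15.8 CPM in knockdown libraries, 20.6 and 21.3 CPM in control libraries and 51.8 CPM in the negative control (limma adjusted p = 0.0056, and 0.13 without knockdown library 3, 0.062 without control library 3 and 0.071 without control library 4). En2 had a log2 fold change of -0.33 (adjusted p = 0.019, and 0.43, 0.058 and 0.24 without these). Neuronal genes had 20 peaks, 2 above the negative control, and those that fell included Celf5 and Neurod2. Neurod2, a transcription factor gene of neurons, held 10.1 and 11.2 CPM in knockdown libraries, 15.8 and 14.1 CPM in control libraries and 61.6 CPM in the negative control (limma adjusted p = 0.02, and 0.2, 0.09 and 0.38 without knockdown library 3, knockdown library 4 or control library 3). Grm4, a metabotropic glutamate receptor gene, fell with a log2 fold change of -0.49 (limma adjusted p = 0.011, and 0.3 and 0.28 without knockdown library 3 or control library 3). Of 29 potassium channel peaks 2 fell, at Kcnh2 and Kcnc4. Kcnc4, of the voltage-gated family, held 13.8 and 14.2 CPM in knockdown libraries, 19.9 and 20.2 CPM in control libraries and 65.8 CPM in the negative control (limma adjusted p = 0.0024, and 0.057 without knockdown library 3). Of 21 protocadherin peaks 1 fell, at Pcdhga2 (limma adjusted p = 0.05 after rounding, and 0.13 to 0.28 with any 1 library left out).

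Calls in the metabolic lists rested on at most 2 peaks per list and direction. Of 18 peaks of fatty acid uptake and oxidation genes 3 stood above the negative control and 2 fell (11.1%), at the nuclear receptor genes Esrrb and Esrrg. Esrrb held 18.7 and 19.4 CPM in knockdown libraries, 25.8 and 25.3 CPM in control libraries and 61.0 CPM in the negative control (limma adjusted p = 0.0067, and 0.1, 0.073 and 0.12 without knockdown library 3, knockdown library 4 or control library 3). Esrrg had a log2 fold change of -0.47 (adjusted p = 0.038, and 0.72, 0.25 and 0.17 without knockdown library 4, control library 3 or control library 4). Of 11 glycolysis peaks 0 stood above and 2 fell (18.2%), at Slc16a3, a lactate transporter gene, and Hk2, the hexokinase 2 gene. Slc16a3 held 3.43 and 3.19 CPM in knockdown libraries, 6.47 and 5.47 CPM in control libraries and 15.6 CPM in the negative control (limma adjusted p = 0.019, and 0.069 to 0.39 with any 1 library left out). Hk2 had a log2 fold change of -0.51 (adjusted p = 0.036, and 0.073 to 0.36 with any 1 library left out), beside a wider peak of 7696 bp whose adjusted p was 0.99. Of 97 solute carrier peaks 12 stood above, 1 rose and 2 fell. Slc17a9, a vesicular nucleotide transporter gene, rose by 0.45 on the log2 scale (adjusted p = 0.038, and 0.076, 0.59 and 0.48 without knockdown library 3, knockdown library 4 or control library 3). The falls were at Slc16a3 and at Slc6a6, the taurine transporter gene (log2 fold change -0.76, adjusted p = 0.023, and 0.12 to 0.36 with any 1 library left out). Of 5 oxidative phosphorylation peaks 2 stood above and none passed, Ndufa3 among them with 45.9 and 49.9 CPM in knockdown libraries, 46.2 and 44.5 CPM in control libraries and 22.5 CPM in the negative control. Of 22 collagen peaks 0 stood above and 1 rose, at Col6a3 (log2 fold change 0.49, adjusted p = 0.014, and 0.21, 0.08 and 0.21 without knockdown library 3, knockdown library 4 or control library 4).

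Cell cycle lists were thinly covered by this width class. G1/S and DNA replication genes had 12 peaks, 5 above the negative control, with 0 calls and a median of 0.09. G2/M genes had 5 peaks at 3 genes, of which Wee1 fell. Negative regulators of the cell cycle had 9 peaks and 0 calls. Of 11 peaks at genes of H3K4 methyltransferases and demethylases 1 stood above and 1 fell, at Smyd2, a lysine methyltransferase gene (log2 fold change -0.64, limma adjusted p = 0.025, and 0.6 without knockdown library 4 and 0.56 without control library 3). Of 32 peaks of Wnt signalling genes 1 stood above and 1 fell, at Wnt7a, a Wnt ligand gene (log2 fold change -0.45, adjusted p = 0.02, and 0.069 to 0.22 with any 1 library left out). The list of interferon-stimulated genes, which does not hold Samd9l, had 6 peaks, 0 above the negative control and 0 calls. Gm numbers, which stand for predicted genes, had 1707 peaks, 72 above, with 3 higher (0.176%) and 58 lower (3.40%), shares near or under those of all intermediate peaks. Rik clones had 384 peaks, 36 above, with 1 higher and 12 lower, and microRNA genes had 141, 7 above, with 0 higher and 8 lower.

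**Figure D5:**
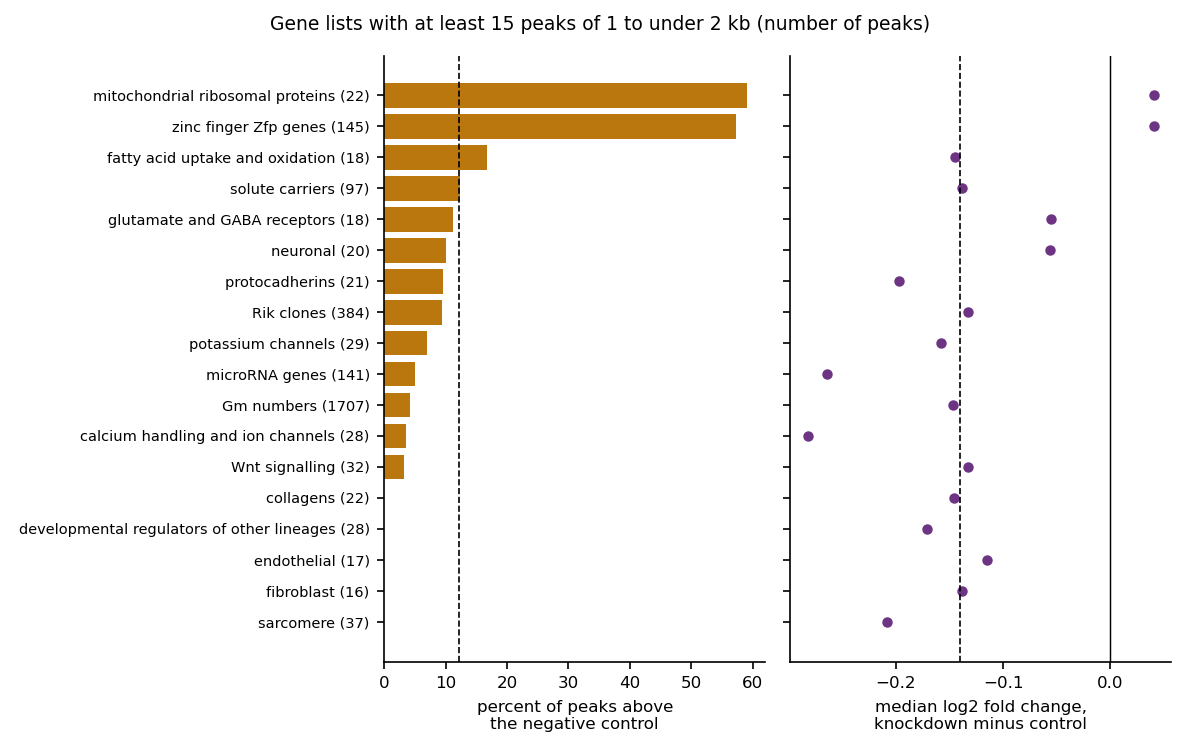
Share of peaks of 1 to under 2 kb above the negative control (left, percent, bars) and median log2 fold change of knockdown minus control (right, points) for gene lists, with the number of peaks in parentheses. Dashed lines mark 12.2% of all peaks of this width and the median of -0.14 over all tested peaks, and of the lists drawn here all medians except those of the Zfp and mitochondrial ribosomal lists changed sign under at least 1 other scaling.

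tRNA genes were looked at after 2 of them appeared among the largest rises above the negative control. They had 51 intermediate peaks at 46 genes, 22 of them on chromosome 13, and 12 stood above the negative control. Of the 51, 6 rose (11.8%, against 0.513% of all intermediate and 1.33% of all tested peaks). The 2 that prompted the look, nTLcag5 and nTFgaa1, are among the 6, so the count is not independent of that choice. Only 1 fell (1.96%, against 3.70% and 1.63%), and the median log2 fold change was 0.13. The 6 were nTLcag5, nTLcaa2, nTFgaa1, nTVaac2, nTVcac2 and nTNgtt9, for leucine, phenylalanine, valine and asparagine tRNAs, and the 1 that fell was the aspartate tRNA gene nTDgtc8. nTVaac2 held 61.4 and 68.5 CPM in knockdown libraries, 51.0 and 52.1 CPM in control libraries and 87.7 CPM in the negative control (log2 fold change 0.32, SE 0.07 and limma adjusted p = 0.0009, and 0.25 without knockdown library 4). nTVcac2 held 50.7 and 50.7 CPM in knockdown libraries, 39.7 and 42.5 CPM in control libraries and 94.9 CPM in the negative control. nTNgtt9 held 53.6 and 56.3 CPM in knockdown libraries, 43.5 and 47.3 CPM in control libraries and 31.4 CPM in the negative control. At each of the 6 both knockdown libraries lay over both control libraries, as they did at all 44 intermediate peaks called higher. With TMM scaling the median was 0.24 and 1 of the 51 rose, with edgeR 1 rose, with median centring, scaling on narrow background peaks or DESeq2 0 did, with quantile normalization 13 rose, and with 1 library left out 2 to 5 rose. tRNA genes have near-identical copies, so reads may be shared between them, and genes on chromosome 13 lie in a cluster.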

How the data were processed

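Chromatin of cardiomyocytes from newborn mice was profiled by CUT&RUN with a commercial kit, per the labels' protocols, and the submitters' processing notes name Trim Galore and the build GRCm39. How reads were aligned and counted, and how peaks were called and tied to genes, is not given in the sources used here. Each peak and library has a CPM value that the authors deposited. These CPM were whole multiples of 1 read for 100% of values (tolerance 1e-06), so reads were recovered for edgeR 4.0.16 (TMM, quasi-likelihood) and DESeq2 1.42.0 as alternatives. For this work 2 lines had been emptied, with 218 to 1561 reads per library, and they stayed in the totals. Columns were mapped to groups only, since their numbers are not those of the sample titles, and 0 value columns were left out.

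The main test was limma 3.58.1 (lmFit and eBayes with a trend, 2-sided) on log2(CPM + 1) of the 4 H3K4 libraries, for the 58072 peaks that reached 1 CPM in 2 or more of them, with Benjamini-Hochberg adjustment over that number. Fold changes are on this scale and understate those of low peaks, and SE values are those of the fit. Single values per library were compared by exact 2-sided permutation tests. Named peaks, Gm numbers, Rik clones, microRNAs and unnamed loci left aside, were the called peaks with the 6 highest and the 6 lowest fold changes on each side with a mean of at least 5 CPM and no library overlap, the 5 highest per side, and the 5 highest and 5 lowest ratios. The 2 smallest p in each list, whatever the symbol, and a fixed set of genes were added. Gene counts of 5 or fewer were named after their values were seen, and some genes are not reported here. Symbols in the table lack hyphens and were matched after removing them. The peaks and the gene lists were chosen with earlier results of these data known. The scripts were tested on simulated data. Alternatives were other pseudocounts, filters and scalings, no trend, the column number as a block, each library left out, and other rules for side and wider peak. Where a group was left with 1 library, its spread was assumed to be that of the other group.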

Additional observations from a re-analysis of the deposited data

How the results depend on the processing

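Pseudocounts of 0.5 and 5 and no filter moved no count of calls by over 1.5 times, except the counts of ratios given last. Counts below are in the order above higher, above lower, below higher and below lower, beside 23, 0, 21 and 318. A filter of 5 CPM gave 37, 2, 30 and 376. TMM scaling gave 2, 0, 10 and 10, median centring 0, 0, 7 and 0, quantile normalization 34, 2, 91 and 81, and scaling on narrow background peaks or limma without a trend 0 in all 4, where unadjusted p under 0.05 numbered 180 and 985. EdgeR gave 2, 0, 7 and 11 and DESeq2 1, 0, 3 and 0, with 2817 peaks given no adjusted p. With 1 library left out the counts ranged from 2 to 20, 0 to 1, 4 to 10 and 47 to 152. Sides set by the control libraries alone gave 20, 3, 24 and 315 with 1048 peaks above.

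The median log2 fold change over all tested peaks was -0.14, and -0.06 with TMM scaling, 0.10 with median centring, 0.00 with quantile normalization, 0.17 with scaling on narrow background peaks and 0.01 with DESeq2. Peaks above had a median of 0.17, 0.30, 0.06, 0.50 and 0.28 in these settings (0.17 with edgeR), and peaks below -0.07, 0.071, -0.013, 0.22 and 0.020. With 1 library left out the medians ranged from 0.02 to 0.09 above and from -0.21 to -0.12 below.

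The replicate block on the column number gave 60, 5, 44 and 681. The labels do not say that the numbers pair libraries, and the deviations of same-numbered libraries had r = 0.12 over all tested peaks and 0.16 over the peaks of 1 to under 2 kb, with only 2 pairs, so the numbers are shared and nothing more.

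At least 2-fold above the negative control were 130 peaks, 138 with a pseudocount of 0.5, 56 with 5 and 1751 with TMM over all 5 libraries. At least 2-fold below were 5327, 5531, 2187 and 3, and the count above was 1045 and 6240 with TMM. A wider peak was found for 9.86% of the peaks above and 48.2% of those below, for 8.23% and 42.7% when it had to lie within 50 kb, and for 1.15% and 19.6% when it had to be at least 5 kb wide. The sign of a call reversed under scaling on narrow background peaks at Apln (0.043), En2 (0.12), Esrrb (0.032), Gm4675 (0.037), the second Sfi1 peak (0.22) and Vmn1r2 (0.10), under median centring at that Sfi1 peak (0.0019), and without knockdown library 4 at Vmn1r2, whose fold change ranged from -0.77 to 0.094 with 1 library left out. The cause was not tested for any of these. Depth is lowest in the negative control, which limits the ratios of weak peaks, and 2 libraries per group limit every count.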
